A study of Dorcoceras hygrometricum with 51 samples.

Results

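The NAC genes of Boea hygrometrica were followed through drying, rewatering and later growth. This species is a resurrection plant whose leaves can survive slow soil-drying and revive on rewatering. NAC proteins are a family of plant transcription factors with a conserved DNA-binding domain at the N terminus and a variable regulatory tail. In Arabidopsis, from which most of their roles are known, members of one branch are induced by drought and by abscisic acid (ABA), the hormone that closes stomata and sets off dehydration responses. Other branches act in leaf senescence, in the thick walls of xylem cells, in organ boundaries and lateral roots, in the root cap, in sieve elements of the phloem or in the response to DNA damage, and some proteins are held at a membrane until they are cleaved.

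Genes were taken as NAC genes when the annotated product, or the first protein hit in the Nr database, was named as a NAC domain protein or NAC transcription factor. The rule found 67 of the 26693 genes, 41 by their product and 26 by the protein hit alone. A further 7 genes carried other NAC family names, such as CUP-SHAPED COTYLEDON, and were not counted. Of the 67, 65 lay on 53 genomic scaffolds and 2 were genes without a place in the reference gene set, so no chromosome is given. Names ending in a number refer to the closest named protein, not to a gene tree, and several genes carry conflicting names.

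Expression was measured by RNA sequencing in 39 leaf libraries, 3 for each of 13 groups of wild-type seedlings raised from seed of a natural population, 3 months old when the treatments began. Fresh leaves that had never been dried are F, and F4 and F18 are the same kind of plants grown on for 4 and 18 weeks. Slow soil-drying gave SD, rewatering of SD plants gave acclimated plants (A), and acclimated plants grown on for 4 and 18 weeks are A4 and A18. Rapid air-drying gave the other groups ending in D. AD, A4D and A18D came from acclimated plants, and FD, F4D and F18D from plants that had not been acclimated. The study reports that plants revived after the drying of SD, AD and A4D but not after that of FD, F4D, F18D and A18D. Each RNA replicate pooled about 45 leaves of at least 15 plants, so a value averages many genotypes and cell types, and fewer cells of a type cannot be told apart from less RNA per cell. Promoter methylation was measured in 12 bisulfite libraries, 1 for each group except FD, each made from DNA of 6 pooled replicates.

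Values are FPKM (fragments scaled to transcript length and to the number of mapped fragments), which sum to between 806800 and 1063492 in a library. Read totals are not given in the files. From the steps between low values, 1 fragment was worth at most 1.31 times more FPKM in one library than in another. Only values close to a gene's lowest value entered this estimate, which bounds the ratio in advance, so it cannot show whether the libraries were of similar depth. Within groups the libraries correlated at 0.902 or higher over genes, with exceptions in F4 (down to 0.897) and A4, where replicate 2 correlated down to 0.846 with the others. Transcripts of rubisco small subunit and chlorophyll-binding proteins, 7 leaf marker genes, summed to at least 55871 FPKM in every F, A, F4 and A4 library, to between 12573.5 and 37357 FPKM in F18 and A18, and to at most 16968 FPKM in the 21 libraries of dried leaves. Their part in the results on NAC genes was not tested. Markers of other tissues were matched by product name alone, and where these genes are expressed was not checked. The 4 root markers summed to at most 59.7 FPKM and the 4 flower markers to at most 28.1 FPKM in any library. The 14 xylem markers, all laccases, summed to at most 107 FPKM in F, SD, A, F4 and A4 libraries. Their sum was between 46.9 and 710.0 FPKM in F18 and A18 and at least 317 FPKM in every rapidly dried library.

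Of the 67 NAC genes, 50 reached 1 FPKM in at least 3 libraries and were tested, and 17 did not. There were 11 that stayed below 1 FPKM in all 39 libraries. By name, 6 genes fell among the stress and ABA proteins, 1 with senescence, 8 with membrane-tethered proteins, 7 with boundary and lateral root, 8 with secondary wall and xylem, 5 with DNA damage, 6 with phloem and 4 with the root cap, and 22 were not placed. Names of the form NAC transcription factor were not used for placing, so genes named only in that form were not placed. The untested genes included 2 of the stress and ABA names and 6 of those not placed. A gene that passed only because it is high in one group had to differ between groups, so the counts below describe the 50 tested genes and not the family.

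Summed over the 67 genes, NAC transcripts were 2836, 2999 and 2989 FPKM in FD leaves, against 641, 871 and 597 FPKM in F leaves, with no overlap. In AD leaves they were 1397, 1283 and 1257 FPKM, against 468, 604 and 838 FPKM in A leaves. In F4D, A4D and F18D every library also lay above those of F4, A4 and F18. At 18 weeks after acclimation the groups overlapped, with 2148, 2923 and 1329 FPKM in A18D, against 1274, 1330.1 and 1397 FPKM in A18. In SD leaves they were 714, 778 and 698 FPKM, inside the range of F leaves. The genes KZV51579 and KZV53859 alone made up 54.4% ± 6.22 of the sum in FD and 5.05% ± 0.261 in F (SD, n = 3 each). FD was the group with the highest mean for 11 of the 67 genes, 10 of them among the genes tested below, more than any other group had. The share of all genes with their highest mean in FD was not counted, so this count does not set the NAC genes apart.

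**Figure D1:**
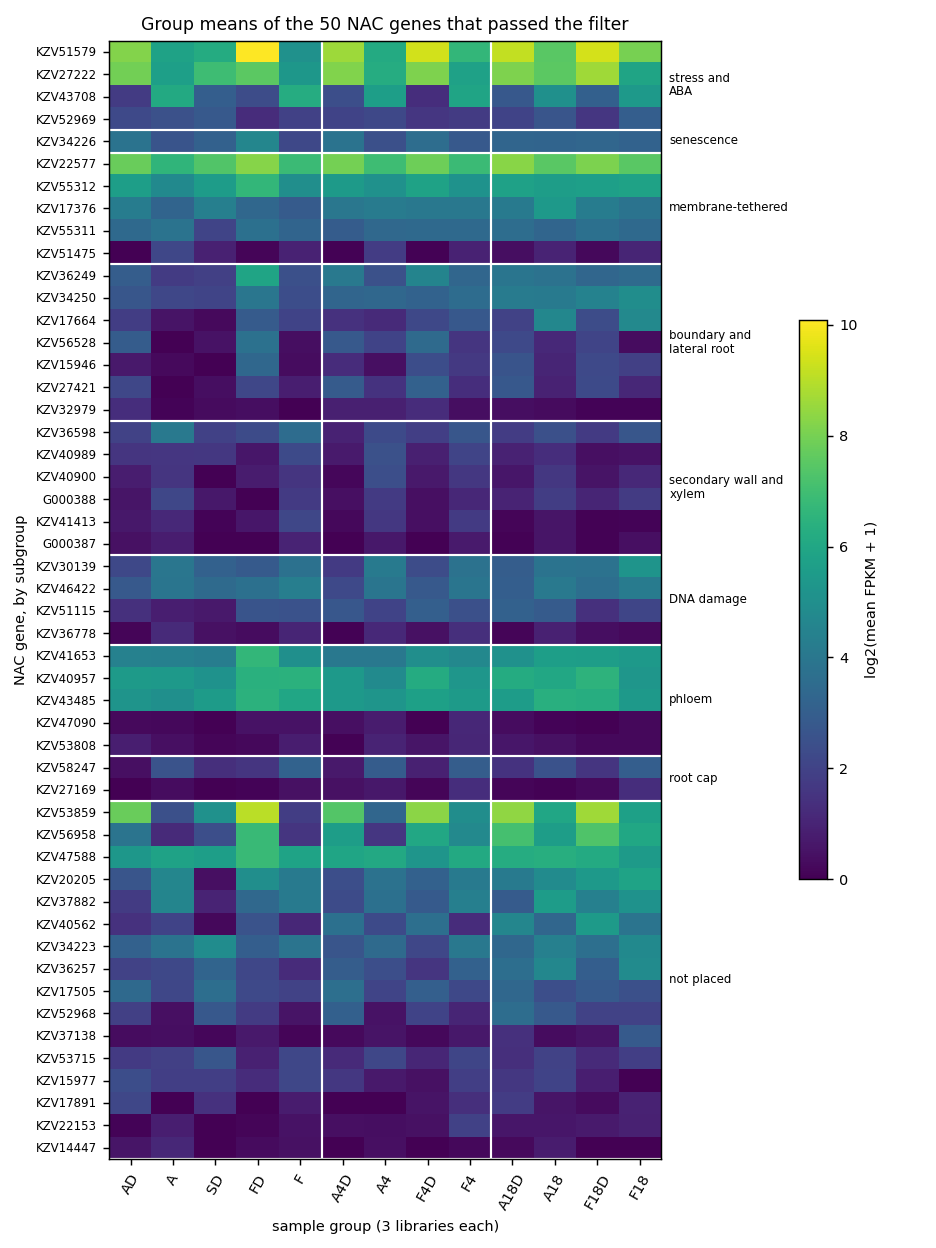
Group means of the 50 tested NAC genes (rows, ordered by subgroup and level) in the 13 groups (columns), coloured by log2 of the mean FPKM plus 1, with 3 libraries a group. White lines part the subgroups and the plants sampled at the start, after 4 weeks and after 18 weeks; KZV51579, KZV27222, KZV22577 and KZV53859 are the brightest rows in dried leaves, and most secondary wall and root cap genes are dark throughout.

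To find which NAC genes moved when leaves dried, each dried group was compared with its hydrated group. A gene was called when its fitted log2 change was at least 1 in size and its adjusted p (limma, adjusted over all 18736 tested genes) was at most 0.05. Genes were chosen for naming from a comparison only if their libraries did not overlap there. For those genes the lack of overlap is therefore no added evidence. In SD/F 7 NAC genes were called higher, against 12.9% of all genes, and 9 lower, against 22.1%. The counts were 12 higher (13.2% of all genes) and 7 lower (29.1%) in FD/F, and 13 higher (13.1%) and 10 lower (26.2%) in AD/A. After 4 weeks they were 8 higher (10.4%) and 9 lower (35.9%) in F4D/F4, and 9 higher (10.4%) and 9 lower (35.5%) in A4D/A4. After 18 weeks they were 5 higher (6.13%) and 9 lower (30.2%) in F18D/F18, and 6 higher (6.43%) and 5 lower (20.6%) in A18D/A18. Of 50 genes, the NAC shares called higher were thus 14% for SD/F, 24% for FD/F, 26% for AD/A and between 10% and 18% in the later comparisons, and SD/F and FD/F share the F libraries. The median log2 change of the 50 NAC genes was -0.43 in SD/F, beside -0.14 for all tested genes, 0.32 in FD/F, beside -0.45, and 0.00 in AD/A, beside -0.33. Some counts rested on single libraries: without FD replicate 1 there were 4 lower in FD/F, without F18 replicate 2 there were 3 higher in F18D/F18, and in A18D/A18 there were 2 higher without A18 replicate 3, 3 higher without A18D replicate 1, and 2, 3 and 1 lower without A18 replicate 2, A18 replicate 3 and A18D replicate 3.

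The split between higher and lower calls depended on the scaling of the libraries. In the deposited FPKM the median change of all genes ran from -0.14 in SD/F to -0.67 in F4D/F4, and after median-ratio scaling from -0.02 in A18D/A18 to -0.18 in FD/F. After scaling, NAC genes were 14 higher and 3 lower in FD/F, 18 higher and 4 lower in F4D/F4, 16 higher and 6 lower in A4D/A4, 9 higher and 2 lower in F18D/F18, and 11 higher and 1 lower in A18D/A18. All genes shifted the same way, for example to 3556 higher and 3921 lower in F4D/F4, against 1940 higher and 6729 lower as deposited. The log2 changes of the genes named by rule kept their sign under this scaling.

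**Figure D2:**
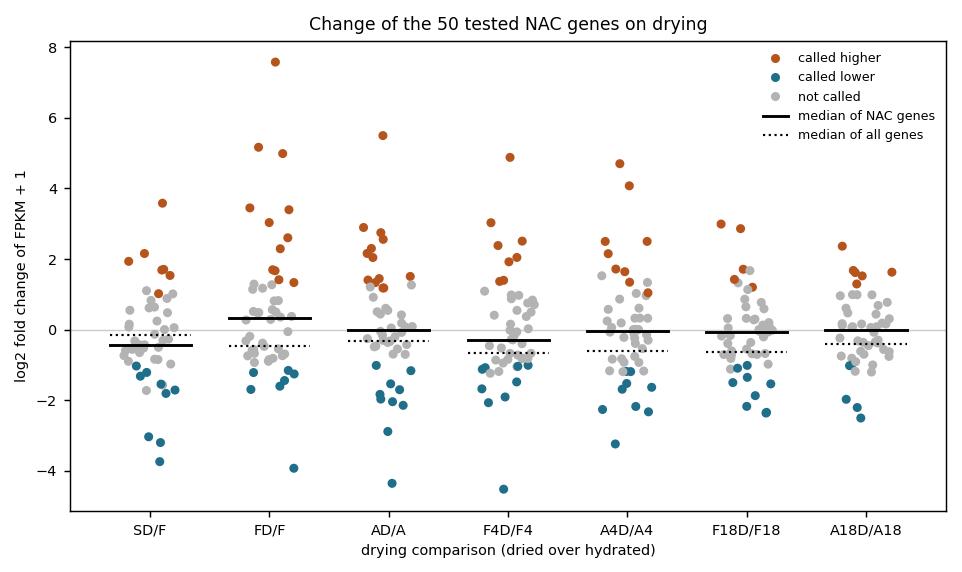
Log2 fold change (dried over hydrated, FPKM plus 1) of the 50 tested NAC genes in the 7 drying comparisons; each point is a gene, orange where called higher, blue where called lower and grey where not called. Solid bars are the NAC medians and dotted bars the medians of all tested genes; KZV53859 is the highest point in each comparison, at 7.58 in FD/F.

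Across the 7 drying comparisons, 20 of the 50 genes were called higher at least once and never lower (20.8% of all tested genes), 21 lower at least once and never higher (52.2%), 2 in both directions (5.14%) and 7 in none (21.9%). KZV53859 was the only NAC gene called higher in all 7 (1.47% of all genes), and KZV51579 joined it in the 6 rapid ones (2.55%). KZV43708 and KZV58247 were called lower in all 7 (6.6%). KZV58247 lost its call after median-ratio scaling in F18D/F18 (-0.71, adjusted p = 0.19) and A18D/A18 (-0.60, adjusted p = 0.28), and in A18D/A18 also without A18 replicate 2, A18 replicate 3 or A18D replicate 3 (adjusted p up to 0.238).

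Among the stress and ABA proteins, KZV51579, whose closest named protein is NAC2 (ATAF1 in Arabidopsis, a factor induced by drought and ABA), had the highest level of any NAC gene. It stood at 911, 1247 and 1088 FPKM in FD, against 32.4, 40.2 and 27.1 FPKM in F (log2 change 4.99 ± 0.52 (SE), adjusted p = 3.4e-09). It stood at 328, 282 and 265 FPKM in AD, against 27.6, 23.8 and 115 FPKM in A (log2 change 2.75 ± 0.52 (SE), adjusted p = 6.6e-05). None of these groups overlapped, although A replicate 3 was far above the other A libraries. In SD it measured 62.95, 79.2 and 73.5 FPKM, above every F library, with a fitted change of 1.1 that did not pass (adjusted p = 0.092).

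After 4 weeks KZV51579 measured 767, 461 and 774 FPKM in F4D, against 79.3, 31.4 and 194 FPKM in F4 (log2 change 3.03 ± 0.52 (SE), adjusted p = 1.4e-05), and 332, 405 and 433 FPKM in A4D, against 43.3, 84.8 and 84.4 FPKM in A4 (log2 change 2.5 ± 0.52 (SE), adjusted p = 0.00018). After 18 weeks it measured 692, 632 and 764 FPKM in F18D, against 279.8, 232 and 266 FPKM in F18 (log2 change 1.42 ± 0.52 (SE), adjusted p = 0.027), and 594, 907 and 192 FPKM in A18D, against 230.4, 232 and 81.1 FPKM in A18 (log2 change 1.52 ± 0.52 (SE), adjusted p = 0.024). The dried libraries lay above the hydrated ones in the first 3 of these pairs, and A18D replicate 3 fell below 2 of the A18 libraries. The call was lost on leaving out any of 4 of the 6 libraries in F18D/F18 (adjusted p from 0.0483 to 0.0748 over the 6) and any of 3 in A18D/A18 (0.00268 to 0.184).

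KZV27222, closest to NAC72 (RD26 in Arabidopsis, an ABA-dependent dehydration factor), was called higher in every drying comparison but A18D/A18. It stood at 131, 143 and 91.6 FPKM in SD, 187, 162 and 199 FPKM in FD and 55.02, 44.7 and 19.5 FPKM in F, with no overlap of either dried group with F. The fitted changes were 1.69 (adjusted p = 0.0077) in SD/F and 2.29 (adjusted p = 0.00038) in FD/F, and the first was lost without F replicate 3 (adjusted p = 0.072). Its level was 265, 228 and 239.8 FPKM in AD, against 47.1, 35.7 and 68.6 FPKM in A (log2 change 2.3 ± 0.51 (SE), adjusted p = 0.00038). Its largest drying change was in F18D/F18, with 515, 444 and 243 FPKM in F18D, against 93.9, 26.4 and 55.05 FPKM in F18 (log2 change 2.86 ± 0.51 (SE), adjusted p = 4.8e-05). In A18 it measured 166, 302 and 83.9 FPKM, overlapping the 170.0, 416 and 249 FPKM of A18D. Its changes in F4D/F4 and A4D/A4 were 2.51 and 2.15, again without overlap of the libraries.

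KZV43708 ran the other way. Its product is named NAC55-like, after an Arabidopsis ABA-response factor, while its first protein hit is JUNGBRUNNEN 1, which in Arabidopsis delays leaf senescence. It fell to 4.83, 8.87 and 7.47 FPKM in SD and 6.43, 4.26 and 1.74 FPKM in FD, against 70.6, 52.8 and 97.98 FPKM in F (log2 change -3.2 ± 0.35 (SE), adjusted p = 1.1e-08 in SD/F; log2 change -3.93 ± 0.35 (SE), adjusted p = 1.1e-10 in FD/F). It fell to 2.68, 1.89 and 2.59 FPKM in AD, against 68.1, 81.1 and 57.2 FPKM in A (log2 change -4.36 ± 0.35 (SE), adjusted p = 2.9e-11), and to 1.29, 1.36 and 1.9 FPKM in F4D, against 42.6, 74.5 and 57.1 FPKM in F4 (log2 change -4.53 ± 0.35 (SE), adjusted p = 1e-11). In the other 3 comparisons it fell by 3.24 on the log2 scale in A4D/A4, by 2.35 in F18D/F18 and by 2.21 in A18D/A18. The 18 hydrated libraries of F, A, F4, A4, F18 and A18 all exceeded the 21 dried ones, with 17.8 FPKM in the lowest hydrated library and 8.87 FPKM in the highest dried one. The remaining tested gene of this subgroup, KZV52969, another NAC2-like gene, named here after its values were seen, was called lower only in F18D/F18, by a fitted 1.5.

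Among genes not placed by name, KZV53859, a NAC superfamily protein closest to a NAC factor of the mangrove Avicennia marina, had the largest rise of all NAC genes. It measured 454, 569 and 537 FPKM in FD and 19.2, 49.9 and 32.1 FPKM in SD, against 0.2, 5.96 and 1.37 FPKM in F (log2 change 7.58 ± 0.82 (SE), adjusted p = 6.1e-09 in FD/F; log2 change 3.58 ± 0.82 (SE), adjusted p = 0.00069 in SD/F). It measured 222, 243 and 187 FPKM in AD, against 2.48, 2.27 and 8.76 FPKM in A (log2 change 5.5 ± 0.82 (SE), adjusted p = 1.8e-06). These groups were far apart, and the ratio of means was 207 in FD/F and 13.4 in SD/F, with means of 2.51 FPKM in F. After 4 weeks it measured 356, 279 and 323 FPKM in F4D, against 3.57, 2.26 and 84.2 FPKM in F4 (log2 change 4.88 ± 0.82 (SE), adjusted p = 9.1e-06), and 159.6, 199 and 133 FPKM in A4D, against 3.12, 1.52 and 22.6 FPKM in A4 (log2 change 4.7 ± 0.82 (SE), adjusted p = 1.7e-05). After 18 weeks it measured 398, 358 and 448 FPKM in F18D, against 73.3, 32.4 and 50.7 FPKM in F18 (log2 change 2.99 ± 0.82 (SE), adjusted p = 0.0039), and 416, 497 and 113 FPKM in A18D, against 92.7, 67.3 and 26.1 FPKM in A18 (log2 change 2.36 ± 0.82 (SE), adjusted p = 0.025). No pair overlapped, but the last call was lost on leaving out any of 3 of the 6 libraries (adjusted p up to 0.134), and F4 replicate 3 and A4 replicate 3 were well above their groups.

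KZV56958, annotated only as a NAC domain protein, rose to 179, 59.1 and 97.1 FPKM in FD, against 1.41, 1.51 and 2.78 FPKM in F (log2 change 5.17 ± 0.57 (SE), adjusted p = 9.7e-09), and to 36.8, 49 and 58 FPKM in A4D, against 0.93, 3.41 and 1.74 FPKM in A4 (log2 change 4.07 ± 0.57 (SE), adjusted p = 6.2e-07). In SD it measured 1.88, 9.57 and 1.82 FPKM, overlapping F, and in AD it measured 22.6, 9.97 and 8.38 FPKM, against 1.16, 1.05 and 1.69 FPKM in A (log2 change 2.56 ± 0.57 (SE), adjusted p = 0.00044). F4D and F4 overlapped, with 107, 29.5 and 59.6 FPKM in F4D, against 46.1, 8.6 and 23.2 FPKM in F4, and the call there was lost without any of 4 single libraries (adjusted p up to 0.29). A18D and A18 overlapped too, and that call was lost without any of 3 (adjusted p up to 0.235).

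**Figure D3:**
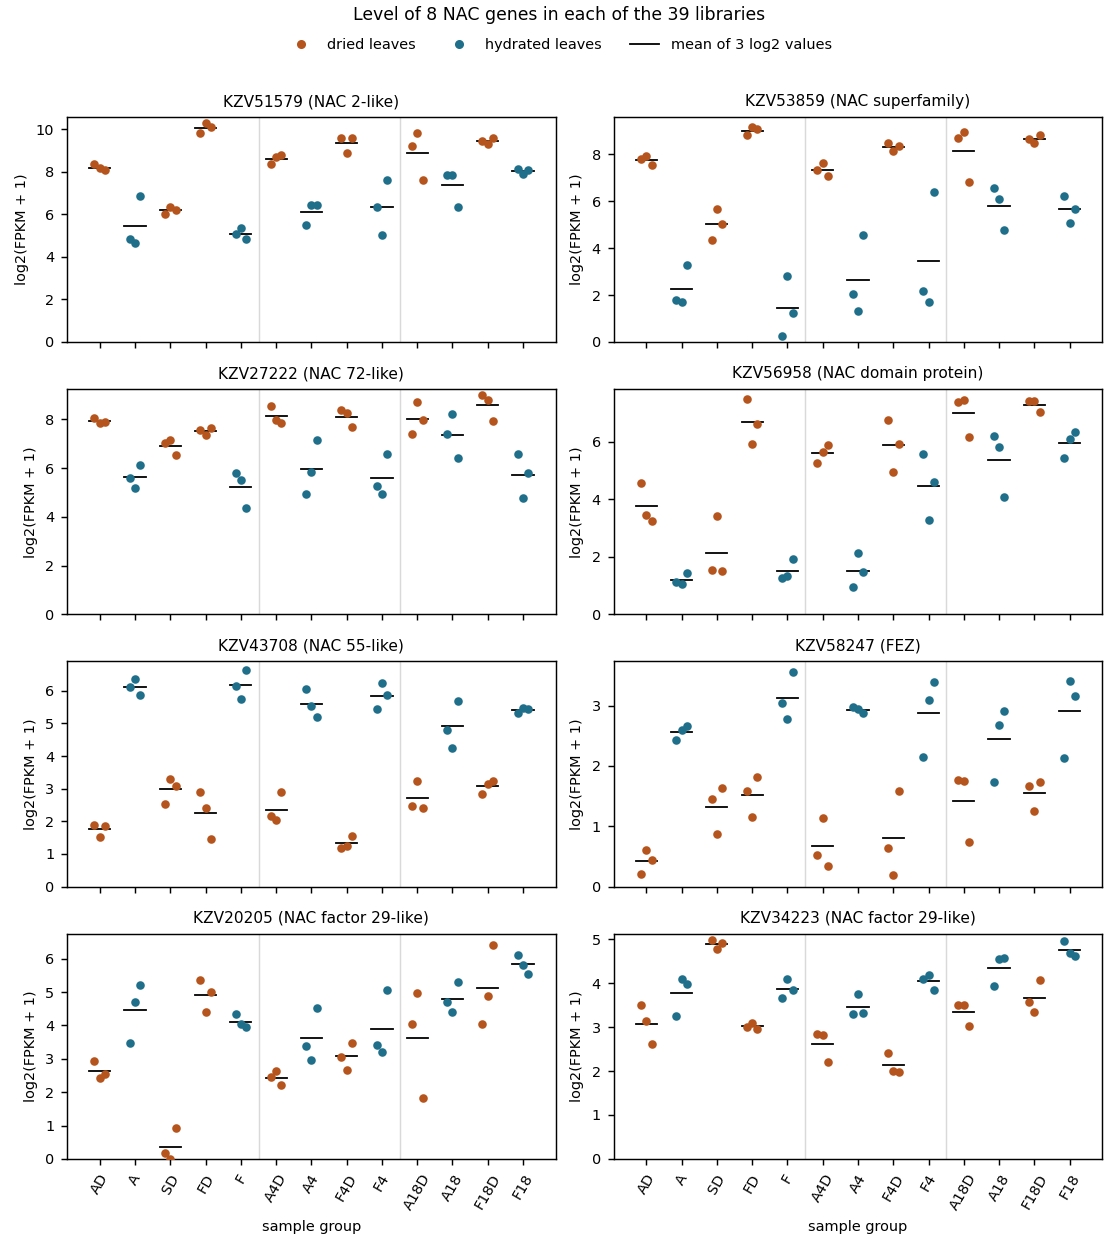
Level of 8 NAC genes in all 39 libraries as log2(FPKM + 1), orange for dried and blue for hydrated leaves, with a black bar at the mean of the 3 log2 values of each group. The dried libraries of KZV43708 all sit below its hydrated ones, whereas KZV20205 is lowest in SD and KZV34223 highest in SD.

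Among genes named after NAC transcription factor 29, which is NAP in Arabidopsis, a regulator of leaf senescence, KZV34223 was called in both directions. It rose to 30.5, 26.4 and 29.1 FPKM in SD, against 11.8, 16.1 and 13.4 FPKM in F (log2 change 1.02 ± 0.26 (SE), adjusted p = 0.0022), but fell to 4.34, 2.98 and 2.93 FPKM in F4D, against 15.97, 17.3 and 13.3 FPKM in F4 (log2 change -1.91 ± 0.26 (SE), adjusted p = 3.7e-07). The SD/F call rests on a change close to the limit and was lost when F replicate 1 or SD replicate 1 was left out (adjusted p = 0.016 and 0.011, with changes of 0.92 and 0.97). KZV34223 also fell in F18D/F18 and A18D/A18, by 1.10 and 1.01, and both calls were lost after median-ratio scaling (-0.33 and -0.47).

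KZV20205 shares the name of its first protein hit with KZV34223, so reads of these genes could have been split between them, although their profiles differ. It fell to 0.13, 0 and 0.89 FPKM in SD, against 19.2, 15.5 and 14.4 FPKM in F (log2 change -3.74 ± 0.59 (SE), adjusted p = 6e-06), whereas FD held 40.4, 20.2 and 30.8 FPKM, above F in every library, with a change of 0.81 that did not pass the test (adjusted p = 0.26). In AD it fell to 6.58, 4.33 and 4.81 FPKM, against 10.1, 25.3 and 35.8 FPKM in A (log2 change -1.84 ± 0.59 (SE), adjusted p = 0.011), a call lost without A replicate 3 (adjusted p = 0.074). KZV37882, with a NAC67 product name and a NAC factor 29 hit, fell to 0.87, 2.2 and 0 FPKM in SD, against 18.6, 24.8 and 5.6 FPKM in F (log2 change -3.04 ± 0.83 (SE), adjusted p = 0.0038), and to 1.49, 3.74 and 1.95 FPKM in AD, against 22.4, 21.2 and 26.3 FPKM in A (log2 change -2.89 ± 0.83 (SE), adjusted p = 0.0049). In A18D/A18 it fell by 2.51, a call lost without A18 replicate 3 or A18D replicate 3 (adjusted p = 0.13 and 0.092) and after median-ratio scaling (-1.97, adjusted p = 0.081).

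KZV52968, another NAC factor 29-like gene, measured 6.74, 2.58 and 8.32 FPKM in SD, against 0.32, 0.58 and 0.4 FPKM in F (log2 change 2.16 ± 0.54 (SE), adjusted p = 0.0016). KZV17505, also NAC factor 29-like, measured 12.4, 11.8 and 10.3 FPKM in SD and 3.78, 2.96 and 4.42 FPKM in FD, against 2.7, 1.81 and 4.43 FPKM in F, and was called in SD/F (log2 change 1.71 ± 0.33 (SE), adjusted p = 0.0001) but not in FD/F (adjusted p = 0.49). KZV36257, with a JUNGBRUNNEN 1-like hit, rose in SD/F (4.48, 10.3 and 10.5 FPKM in SD, against 0.93, 1.33 and 1.83 FPKM in F; log2 change 1.93 ± 0.66 (SE), adjusted p = 0.018) and fell in F18D/F18 (5.99, 9.99 and 5.06 FPKM in F18D, against 35.7, 23.8 and 24.2 FPKM in F18; log2 change -1.87 ± 0.66 (SE), adjusted p = 0.021). Each of these KZV36257 calls was lost without any of 3 of its 6 libraries, and the second after scaling.

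The direct comparison of the 2 dried states, SD/FD, called 5 NAC genes higher (22.1% of all genes) and 18 lower (15.6%), or 11 lower when replicate 1 of both groups was left out. The largest changes were those of KZV20205 (-4.56), KZV56958 (-4.53) and KZV53859 (-4.0), all with adjusted p of 0.00019 or less and no overlap. KZV34223 and KZV17505 were called higher in SD than in FD, at 1.87 and 1.42. Of the 7 tested boundary and lateral root genes, 6 were called lower in SD than in FD and none higher.

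Of the 7 tested boundary and lateral root genes, FD/F and AD/A each called 4 higher (13.2% and 13.1% of all genes), F4D/F4 called 3 and A4D/A4 called 1 (10.4% of all genes in each), with none lower in these comparisons. In F18D/F18 there were 1 higher and 1 lower, in A18D/A18 2 higher and 1 lower, and in SD/F none. KZV36249, closest to NAC21/22 (NAC1 in Arabidopsis, an auxin-dependent factor of lateral roots), measured 55.5, 74.2 and 43.8 FPKM in FD and 1.64, 3.73 and 2.92 FPKM in SD, against 2.68, 5.54 and 5.08 FPKM in F (log2 change 3.45 ± 0.57 (SE), adjusted p = 9.2e-06 in FD/F). In AD it measured 10.3, 5.53 and 4.84 FPKM, against 0.27, 5.18 and 1.72 FPKM in A, which overlapped, and that call was lost without any of 4 single libraries (adjusted p up to 0.251). KZV56528, a NAC100 protein of the family that includes Arabidopsis targets of miR164, was listed at 0 in all 3 A libraries and at 5.05, 8.43 and 6.19 FPKM in AD (adjusted p = 9.9e-07). It measured 13.2, 11.8 and 12.3 FPKM in FD, against 0, 0.2 and 0.73 FPKM in F (log2 change 3.4 ± 0.41 (SE), adjusted p = 5.9e-08).

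KZV15946, also named NAC100, measured 14.5, 7.1 and 6.7 FPKM in FD, against 0, 0.76 and 0 FPKM in F (log2 change 3.03 ± 0.47 (SE), adjusted p = 3.7e-06), but 0.18, 0.9 and 0.82 FPKM in AD. KZV27421 rose in A18D/A18, with 8.56, 6.95 and 1.86 FPKM in A18D, against 1.17, 0.35 and 1.28 FPKM in A18 (log2 change 1.67 ± 0.58 (SE), adjusted p = 0.026), a call lost without any of 3 of the 6 libraries. KZV17664, with the NAC21/22 product name, fell in F18D/F18, to 5.71, 4.61 and 1.94 FPKM in F18D, against 13.7, 37.9 and 25.5 FPKM in F18 (log2 change -2.37 ± 0.75 (SE), adjusted p = 0.011), and did not pass after median-ratio scaling (adjusted p = 0.11).

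Of 5 tested membrane-tethered genes, KZV22577 had the highest level. It is closest to NAC78, which in Arabidopsis acts in flavonoid synthesis under strong light and in the response to failing proteasomes. It measured 332, 282 and 306 FPKM in FD, against 97.9, 134 and 114 FPKM in F (log2 change 1.41 ± 0.16 (SE), adjusted p = 1.4e-08), and 223, 218 and 212 FPKM in AD, against 82, 114 and 93.4 FPKM in A (log2 change 1.18 ± 0.16 (SE), adjusted p = 3.6e-07). A4D/A4 passed at 1.04, a change that fell under 1 without A4 or A4D replicate 3 (0.93 and 0.98). The dried libraries lay above the hydrated ones in all 7 comparisons, although the changes in the other 4 were smaller than 1. KZV55312, also NAC78-like, measured 116, 84.8 and 101.1 FPKM in FD and 52.3, 46.3 and 41.9 FPKM in SD, against 25.9, 31.5 and 33.6 FPKM in F (log2 change 1.69 ± 0.29 (SE), adjusted p = 1.2e-05 in FD/F). KZV22577, KZV55312, KZV55311 and KZV51475 share the name of their first protein hit, so their reads could have been divided among them.

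Secondary wall, root cap and DNA damage genes fell or were not called. Of the 6 tested secondary wall genes, 4 were called lower in FD/F (29.1% of all genes) and 4 in SD/F (22.1%). A4D/A4 called 4 lower (35.5%) and AD/A 2 (26.2%). None was called lower in F4D/F4, F18D/F18 or A18D/A18, and none higher in any drying comparison. Apart from KZV36598, the highest group mean in this subgroup was 4.65 FPKM. KZV36598, closest to NAC7 (VND4 in Arabidopsis, a switch of vessel formation), measured 4.16, 3.83 and 3.98 FPKM in FD, against 16.5, 10.3 and 5.96 FPKM in F (log2 change -1.16 ± 0.44 (SE), adjusted p = 0.03), and 4.18, 2.93 and 1.66 FPKM in AD, against 7.46, 19.7 and 20.7 FPKM in A (log2 change -2.05 ± 0.44 (SE), adjusted p = 0.0003). The FD/F call was lost after median-ratio scaling (-0.82, adjusted p = 0.12) and without any of 5 of the 6 libraries. The A4D/A4 call of KZV36598 was lost after the same scaling (-0.74, adjusted p = 0.16) and without any of 3 of the 6 libraries. The summed level of the 14 laccases taken as xylem markers was higher in every FD and AD library than in any F or A library. The median log2 change of the 9 tested laccases was -0.65 in FD/F (2 higher, 2 lower) and -0.54 in AD/A (2 higher, 0 lower). The sum thus rose while the median gene fell, and the part of these markers in the NAC values was not tested. KZV58247, named FEZ after the Arabidopsis factor that drives divisions of root cap stem cells, measured 2, 1.23 and 2.54 FPKM in FD, against 7.22, 5.87 and 10.8 FPKM in F (log2 change -1.61 ± 0.39 (SE), adjusted p = 0.001). After 4 weeks KZV58247 measured 0.56, 0.14 and 2.01 FPKM in F4D, against 3.42, 7.56 and 9.55 FPKM in F4 (log2 change -2.07 ± 0.39 (SE), adjusted p = 4.6e-05), and 0.43, 1.2 and 0.27 FPKM in A4D, against 6.9, 6.67 and 6.34 FPKM in A4 (log2 change -2.27 ± 0.39 (SE), adjusted p = 1.5e-05). All were leaf samples, and no other root cap gene reached a group mean of 1.5 FPKM.

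KZV30139, closest to NAC8 (SOG1 in Arabidopsis, the central switch of the DNA damage response), fell to 2.73, 2.41 and 1.77 FPKM in A4D, against 21.2, 9.63 and 18.1 FPKM in A4 (log2 change -2.33 ± 0.38 (SE), adjusted p = 5.5e-06). It was also called lower in AD/A, F4D/F4 and F18D/F18, by 1.71, 1.68 and 1.54, and the last 2 did not pass after median-ratio scaling (-0.94 and -0.77). The only gene placed with senescence by name was KZV34226, closest to NAC16 of cotton and named here after its values were seen. It was called higher in FD/F (2.6), AD/A (1.4) and A4D/A4 (1.34). The NAC factor 29 genes above, some of which fell on drying, were not placed with it because of the form of their names.

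3 of the phloem names and KZV47588 were detected at substantial levels in all groups. KZV41653, KZV40957 and KZV43485 share the name of their first protein hit, NAC45, which in Arabidopsis directs the loss of nuclei in sieve elements, so their reads may have been split. KZV41653 measured 89.4, 96.8 and 117 FPKM in FD, against 28.97, 35.7 and 28.5 FPKM in F (log2 change 1.67 ± 0.45 (SE), adjusted p = 0.0026). KZV40957 was called only in F18D/F18 among the drying comparisons, with 74.6, 83.4 and 117 FPKM in F18D, against 41.5, 36.04 and 38.5 FPKM in F18 (log2 change 1.2 ± 0.41 (SE), adjusted p = 0.018), a call lost without F18 replicate 2 or F18D replicate 3 (adjusted p = 0.052 and 0.075), and KZV43485, at 68.4, 98.5 and 94.3 FPKM in FD, against 56.5, 81.8 and 48.4 FPKM in F, in none. KZV47588, a second gene closest to the Avicennia factor, was called in no comparison. It measured 120.3, 99.5 and 115 FPKM in FD, against 48.6, 104.1 and 17.6 FPKM in F, and its replicates spread widely, with 18.6, 13.7 and 173 FPKM in F4.

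Rewatering of slowly dried plants was examined in A/SD, which called 9 NAC genes higher (20.4% of all genes) and 7 lower (14.5%). KZV20205 rose to 10.1, 25.3 and 35.8 FPKM in A, against 0.13, 0 and 0.89 FPKM in SD (log2 change 4.1 ± 0.59 (SE), adjusted p = 1.6e-06). KZV37882 rose to 22.4, 21.2 and 26.3 FPKM in A, against 0.87, 2.2 and 0 FPKM in SD (log2 change 3.74 ± 0.83 (SE), adjusted p = 0.00054), and KZV43708 to 68.1, 81.1 and 57.2 FPKM in A, against 4.83, 8.87 and 7.47 FPKM in SD (log2 change 3.14 ± 0.35 (SE), adjusted p = 1.8e-08). KZV53859 fell to 2.48, 2.27 and 8.76 FPKM in A, against 19.2, 49.9 and 32.1 FPKM in SD (log2 change -2.75 ± 0.82 (SE), adjusted p = 0.0074), with KZV52968 and KZV17505 falling by 2.29 and 1.53. No libraries of these genes overlapped between A and SD, as the choice of genes required. Without A replicate 1 the count of lower calls dropped to 4.

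Acclimated plants were compared with plants of the same age that had not been acclimated. No NAC gene was called in A/F by limma, against 0.117% of all genes in either direction, and 2 of 50 had an unadjusted p under 0.05. In A4/F4 KZV56958 alone was called (0.048% of all genes), with 0.93, 3.41 and 1.74 FPKM in A4, against 46.1, 8.6 and 23.2 FPKM in F4 (log2 change -2.96 ± 0.57 (SE), adjusted p = 0.03). Its libraries did not overlap, but the call was lost without A4 replicate 1 or F4 replicate 1 (adjusted p = 0.079 and 0.21), and also after scaling (adjusted p = 0.10). Without A4 replicate 2, the A4 library that stood apart, the change of KZV56958 was -3.27 (adjusted p = 0.0022).

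In A18/F18, 1 NAC gene was called higher (2% of all genes) and 3 lower (5.75%). KZV37138, closest to NAC factor 25, measured 0.3, 0.16 and 0.33 FPKM in A18, against 1.3, 9.14 and 8.49 FPKM in F18 (log2 change -2.26 ± 0.40 (SE), adjusted p = 0.0005). KZV30139 measured 14.1, 14.3 and 11.97 FPKM in A18, against 31.99, 43.3 and 33.05 FPKM in F18 (log2 change -1.35 ± 0.38 (SE), adjusted p = 0.022), with no overlap, and this call was lost after scaling and without any of 3 single libraries (adjusted p up to 0.124). The count of lower calls was 1 without A18 replicate 2 or F18 replicate 2, and the single higher call, KZV27222, was lost without any of A18 replicates 1 or 2 or F18 replicates 2 or 3, while A18 replicate 3 left out gave 2 higher.

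Between dried acclimated and dried unacclimated leaves, AD/FD called 2 NAC genes higher (6.89% of all genes) and 9 lower (8.92%). The lower calls ran from 4 to 9 with libraries left out, singly or by replicate number. Those of KZV58247, KZV55312 and KZV43485 were lost without any of 5, 4 and 3 of the 6 libraries, and that of KZV55312 also after median-ratio scaling (-0.88). KZV36249 measured 10.3, 5.53 and 4.84 FPKM in AD, against 55.5, 74.2 and 43.8 FPKM in FD (log2 change -2.93 ± 0.57 (SE), adjusted p = 0.00039). KZV56958 measured 22.6, 9.97 and 8.38 FPKM in AD, against 179, 59.1 and 97.1 FPKM in FD (log2 change -2.92 ± 0.57 (SE), adjusted p = 0.0004), and KZV15946 measured 0.18, 0.9 and 0.82 FPKM in AD, against 14.5, 7.1 and 6.7 FPKM in FD (log2 change -2.63 ± 0.47 (SE), adjusted p = 0.00014). None of these groups overlapped, as the choice of genes required. KZV51579 was also lower in AD, by 1.88 (adjusted p = 0.011), and was 328, 282 and 265 FPKM in AD, against 911, 1247 and 1088 FPKM in FD. No NAC gene was called in A4D/F4D (0.032% of all genes, 3 NAC genes at an unadjusted p under 0.05) or in A18D/F18D (0.662%, 6 NAC genes), where 1 was called lower without A18D replicate 2.

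Whether drying acted differently in acclimated plants was tested as the difference of the 2 drying changes. For (AD/A)/(FD/F) 4 of 50 NAC genes were called, against 8.81% of all genes, so the NAC share was near the background. They were KZV20205 (log2 change -2.65 ± 0.84 (SE), adjusted p = 0.042), KZV56958 (log2 change -2.61 ± 0.81 (SE), adjusted p = 0.038), KZV15946 (log2 change -2.6 ± 0.67 (SE), adjusted p = 0.012) and KZV17891, named here after its values were seen (log2 change 2.59 ± 0.66 (SE), adjusted p = 0.011). The count of negative differences was 1 without any of F replicates 1 or 2, A replicate 3, AD replicates 2 or 3 or FD replicates 1 or 3, and 5 without A replicate 1, and the positive count was 0 without F replicate 1 and 2 without A replicate 3. The calls of KZV20205 and KZV56958 were each lost on leaving out any of 9 of the 12 libraries. For (A4D/A4)/(F4D/F4) none was called (0.0107% of all genes, 7 NAC genes at an unadjusted p under 0.05), and for (A18D/A18)/(F18D/F18) only KZV37138 was (0.801% of all genes; log2 change 3.16 ± 0.56 (SE), adjusted p = 0.0043). That call held without any single library (adjusted p up to 0.0252) and was lost in the fit of these libraries alone and when replicate 2 or replicate 3 of all 4 groups was left out.

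After 18 weeks of growth more NAC genes were called higher than lower, as were all genes in F18/F but not in A18/A. In F18/F 12 were called higher (13.5% of all genes) and 2 lower (7.15%), and in A18/A 10 were higher (6.39%) and 2 lower (6.77%). KZV56958 measured 42.3, 66.8 and 79.9 FPKM in F18, against 1.41, 1.51 and 2.78 FPKM in F (log2 change 4.45 ± 0.57 (SE), adjusted p = 1.9e-06), and 72.4, 55.7 and 15.8 FPKM in A18, against 1.16, 1.05 and 1.69 FPKM in A (log2 change 4.17 ± 0.57 (SE), adjusted p = 8.3e-06). KZV53859 measured 73.3, 32.4 and 50.7 FPKM in F18, against 0.2, 5.96 and 1.37 FPKM in F (log2 change 4.22 ± 0.82 (SE), adjusted p = 0.00032), and 92.7, 67.3 and 26.1 FPKM in A18, against 2.48, 2.27 and 8.76 FPKM in A (log2 change 3.54 ± 0.82 (SE), adjusted p = 0.003). Neither gene overlapped between the ages, as the choice of genes required. KZV36257 rose in F18/F by 3.6 (adjusted p = 0.00016), and KZV17664 in A18/A by 3.34 (adjusted p = 0.0022), with 48.4, 22.5 and 1.63 FPKM in A18, against 0.16, 0.68 and 0.52 FPKM in A. The lower calls in F18/F were 1 without F replicate 3 or any F18 library, and in A18/A 1 without A replicate 2 or A18 replicate 2 and 0 without A18 replicate 1. Without A replicate 1 the higher calls in A18/A dropped to 6, and in the fit of these libraries alone to 2. The higher calls in F18/F ran from 6 to 12 with libraries left out, singly or by replicate number. There KZV52968, KZV20205 and KZV15946 lost their calls after median-ratio scaling (limma, adjusted p = 0.17, 0.080 and 0.088). The KZV52968 call was also lost without any single library of the 6, and the KZV20205 call without any of 5. The leaf marker sum was lower in every F18 and A18 library than in any F or A library, and its part in these changes was not tested.

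**Figure D4:**
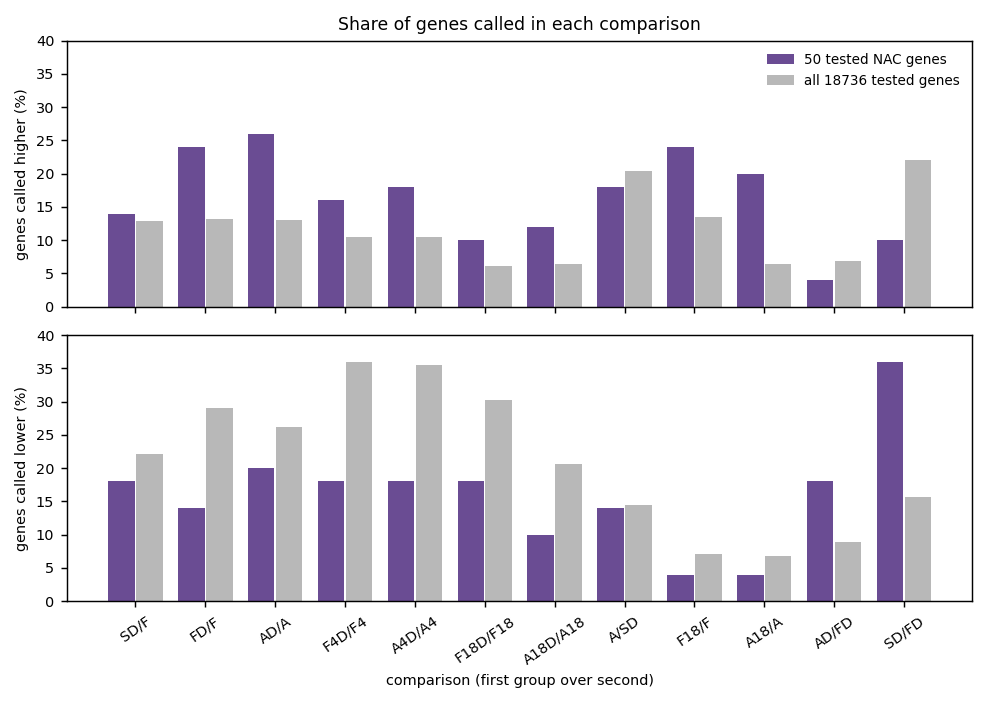
Percent of the 50 tested NAC genes (purple) and of all 18736 tested genes (grey) called higher (upper panel) and lower (lower panel) in 12 comparisons, first group over second. The NAC bars for higher calls stand at 24% in FD/F, 26% in AD/A and 24% in F18/F, beside 13.2%, 13.1% and 13.5% of all genes.

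Genes that NAC proteins are known to control or accompany in Arabidopsis were counted from lists matched by product name. Of 3 genes matched by the ERD1 pattern, which held ClpD (the ERD1 protease regulator, a target of drought NAC factors) and 2 ERD15-like genes that are not ERD1, 2 were called higher in FD/F and 1 in SD/F, with none lower, 2 higher and 1 lower in AD/A, 1 higher and 1 lower in each of F4D/F4 and A4D/A4, and 1 lower in each of F18D/F18 and A18D/A18. Of 7 chlorophyll breakdown genes, 4 were lower and 1 higher in FD/F (29.1% and 13.2% of all genes), and 4 lower and none higher in SD/F (22.1% and 12.9%). Their summed level was 1569.5 to 1814 FPKM in FD, against 561 to 704 FPKM in F, so the sum was higher while most of the genes called were lower. The 8 ABA synthesis genes were zeaxanthin epoxidases apart from KZV45228, a 9-cis-epoxycarotenoid dioxygenase, so their counts describe mostly the epoxidases. Of these 8 genes 4 were lower and 1 higher in FD/F, and 2 lower and 1 higher in SD/F. The senescence protease list matched 1 gene, which is named only as a senescence-associated protein. It was called higher only in A18D/A18, where the A18D libraries reached at most 2.02 FPKM. Of 9 tested secondary wall genes (the same list as the xylem markers) 2 were higher and 2 lower in FD/F. Of 6 zinc finger homeodomain genes, known to pair with NAC proteins at the ERD1 promoter, 1 was lower in FD/F. In SD/F 2 of these homeodomain genes were higher and 1 lower. For comparison of counts, FD/F called 15 of 54 tested WRKY genes higher and 6 lower and 7 of 27 ERF or DREB genes higher and 5 lower, beside 13.2% of all genes higher and 29.1% lower. F18/F called 26 of 54 WRKY genes higher and none lower, beside 13.5% of all genes higher and 7.15% lower. The difference between these families and the NAC genes was not tested.

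Promoter methylation was available for 45 of the 67 genes, as the average methylation level of a promoter's cytosines in percent. It was given separately for CG, CHG and CHH sites, where H is A, C or T. The files give no coverage for a promoter and there is 1 library a group, so no test was made. The FPKM column beside the methylation values followed the preceding gene ID, so a methylation value may belong to a neighbouring gene. Every value for a single gene carries this doubt, and so do the medians and counts of NAC promoters. The NAC promoters had a median CG level of 31.7% in F, against 62.8% over all promoters, and 29.8% in SD, against 59.6%. Of the 45 promoters, 9 differed by 20 points or more in CG between at least 1 of 14 compared pairs of libraries (24.1% of all promoters), 11 in CHG (15.9%) and 5 in CHH (7.23%).

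The promoters of the drying-responsive genes did not share one level. That of KZV53859 stayed between 0% and 1.72% in CG in all 12 libraries, and that of KZV20205 between 0.119% and 2.12%. That of KZV56958 was methylated at 93.96% in SD, against 95.1% in F, and at 73% in A4, and that of KZV43708 between 33.3% and 41.9%. The largest CHG difference was at KZV27222, with 32.6% in SD, 52.9% in A and 13.99% in F18, against 98.1% in F, while its CG level was 21.2% in SD, 29.01% in A and 12.6% in F18, against 26.1% in F. KZV36249 had 19.2% CG methylation in SD, against 3.27% in F, and 26.1% CHH methylation in SD, against 3.78% in F. In A4 the whole library was lower, with a median over all promoters of 51.5% CG in A4, against 61.5% in F4.

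**Figure D5:**
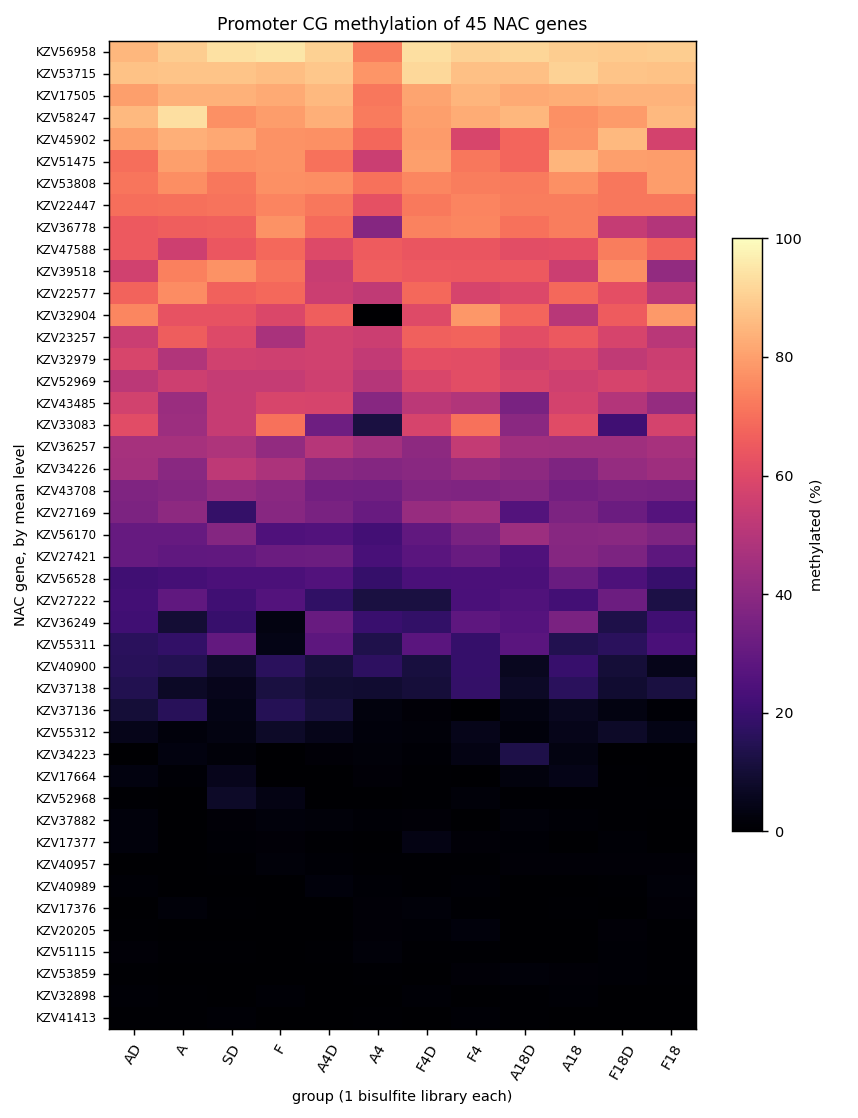
Promoter CG methylation (average level of the cytosines, in percent) of 45 NAC genes, ordered by mean level, in the 12 bisulfite libraries, 1 a group. The bottom rows, with KZV53859 and KZV20205, stay near 0%, KZV56958 at the top lies between 73% and 95.1%, and the A4 column is darker in KZV32904, KZV33083 and KZV36778.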

How the data were processed

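RNA was measured in 39 leaf libraries and promoter methylation in 12 bisulfite libraries. Per the labels and the study's methods, reads were mapped with Bowtie2 (2.2.5), and the authors deposited FPKM from RSEM for each library, with transcripts added by HISAT and StringTie (1.0.4). The authors deposited promoter methylation as a fraction per cytosine context after BSMAP, without coverage. The FPKM column beside these followed the preceding gene ID (Spearman 0.844 in A, against 0.0692 at the own ID), so the row alignment is in doubt. Fractions were taken at the own ID because near-equal levels (mean difference under 3 points) were most tied to distance there, in 17.8% of neighbours 1 to 2 kb apart and 3.02% over 8 kb apart, against 13.2% and 6.7%, or 13.0% and 6.24%, with rows shifted by 1 either way.

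Genes that reached 1 FPKM in 3 or more libraries were fitted in R (4.3.3) with limma (3.58.1) on log2(FPKM + 1), all 39 libraries in 1 model of 13 group means with a trended variance. P-values are two-sided and adjusted by Benjamini-Hochberg over all tested genes. A fold change on this scale understates the change of low genes, and p-values measure the spread between pooled samples. The script was tested on simulated data. Alternatives were a pseudocount of 0.1, no filter, median-ratio scaling, a fit of each comparison alone, a replicate block and leaving out libraries.

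The members and lists were chosen with earlier results of these data known. Library values are given for the 10 genes with the highest group mean and for up to 3 called genes in each direction per comparison, whose higher mean reached 5 FPKM and whose libraries did not overlap. Genes were grouped by the number after NAC domain-containing protein in their names, or by a name such as FEZ. Numbers after NAC transcription factor were not read.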

Additional observations from a re-analysis of the deposited data

Results flagged for a closer look

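In 4 genes the drying change differed between acclimated and unacclimated plants by limma's test of the difference itself, (AD/A)/(FD/F). The difference of log2 changes was -2.61 in KZV56958 (adjusted p = 0.038), -2.65 in KZV20205 (adjusted p = 0.042), -2.60 in KZV15946 (adjusted p = 0.012) and 2.59 in KZV17891 (adjusted p = 0.011). The calls of KZV56958 and KZV20205 were each lost without any of 9 of the 12 libraries, that of KZV17891 without F replicate 1, and without the filter or with a pseudocount of 0.1 only 1 of the 3 negative calls remained. KZV17891, closest to a wheat NAM factor, measured 1.44, 5.59 and 3.34 FPKM in AD, was listed at 0 in every A and FD library and measured 2.13, 0 and 0 FPKM in F.

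At 18 weeks KZV37138 differed in the same way, by 3.16 for (A18D/A18)/(F18D/F18) (limma, adjusted p = 0.0043). It measured 1.5, 0.66 and 2.74 FPKM in A18D, against 0.3, 0.16 and 0.33 FPKM in A18, and 0, 1.39 and 0 FPKM in F18D, against 1.3, 9.14 and 8.49 FPKM in F18.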

How the results depend on the processing

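Of 148 values of named genes, 2096 alternative values were computed, and 1738 kept their direction and their side of the threshold, 358 kept their direction but lost the call, and 0 reversed. The files give neither the coverage of a promoter nor the read total of an RNA library, and 3 libraries a group limit the precision.

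Median-ratio scaling gave NAC counts of 3 lower in FD/F, 18 higher and 4 lower in F4D/F4, 16 higher in A4D/A4, 9 higher and 2 lower in F18D/F18, 11 higher and 1 lower in A18D/A18, 0 lower in A4/F4, 2 higher and 1 lower in A18/F18 and 4 lower in F18/F. The fit of a comparison alone gave 5 higher in F4D/F4, 0 higher and 1 lower in A18D/A18, 0 lower in A4/F4, 0 higher and 1 lower in A18/F18, 0 lower in F18/F, 2 higher and 0 lower in A18/A and 0 higher in (A18D/A18)/(F18D/F18). Without the filter there were 3 lower in A18D/A18, 0 higher in A18/F18, 1 lower in F18/F and 1 lower in (AD/A)/(FD/F). A pseudocount of 0.1 gave 4 higher in AD/FD, 8 higher in SD/FD and 1 lower in (AD/A)/(FD/F). A methylation threshold of 10 or 30 points gave 28 or 4 NAC promoters in CG, 19 or 6 in CHG and 17 or 1 in CHH.

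With libraries left out, singly or by replicate number, the counts of NAC genes ran over 4 to 7 lower in FD/F, 5 to 11 higher in F4D/F4, 3 to 6 higher in F18D/F18, 4 to 10 lower in F18D/F18, 1 to 7 higher in A18D/A18, 1 to 6 lower in A18D/A18, 3 to 10 lower in A/SD, 0 to 1 lower in A4/F4, 0 to 2 higher in A18/F18, 0 to 3 lower in A18/F18, 6 to 12 higher in F18/F, 1 to 2 lower in F18/F, 1 to 11 higher in A18/A, 0 to 3 lower in A18/A, 1 to 3 higher in AD/FD, 4 to 9 lower in AD/FD, 0 to 1 lower in A18D/F18D, 11 to 18 lower in SD/FD, 0 to 2 higher in (AD/A)/(FD/F), 1 to 5 lower in (AD/A)/(FD/F), 0 to 1 higher in (A18D/A18)/(F18D/F18) and 0 to 2 lower in (A18D/A18)/(F18D/F18). The cause was not tested.

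Replicate numbers did not pair the samples by the correlation of their deviations, and the fit with the replicate number as a block gave 10 higher in A4D/A4, where the fit without it gave 9, and changed no call of a named gene.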
